A study of Mus musculus with 8 samples.

Results

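The histone cluster genes are the mouse genes that encode the core histones H2A, H2B, H3 and H4 and the linker histone H1 and that lie in the histone gene clusters. Their members were taken as every gene symbol of the expression files that begins with Hist, a cluster number from 1 to 4 and the letter h, which gave 68 of 23235 symbols. They comprise 6 H1, 18 H2A, 19 H2B, 12 H3 and 13 H4 genes, and the testis genes Hist1h1t, Hist1h2aa and Hist1h2ba are also shown apart. The study sequenced RNA of spermatocytes from male mice with and without Cnot4, the gene of an E3 ubiquitin ligase that binds the CCR4-NOT deadenylase. Its question was how the loss of Cnot4 changes the transcripts of spermatocytes before and after they reach pachytene. The LZ groups hold leptotene and zygotene cells and the PD groups hold pachytene and diplotene cells, each from wild type (WT) and from the mutant that the labels call Cnot4-KO and the paper Cnot4-null. There are 2 libraries in each of the 4 groups, 8 in all. The duplicates are described as biological replicates in the methods.

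All animals were C57BL/6 males, and the Cnot4-null mice were Cnot4 fl/fl;Stra8-Cre. Cre under the Stra8 promoter acts in male germ cells before meiosis, and the deletion removes only exon 2 of Cnot4. The cells were sorted by flow cytometry from males aged 6 weeks, as the methods on cell isolation describe, while the methods on the libraries give no age of their own. According to the methods, cDNA was made from a small number of cells per sample with oligo-dT primers (Smart-Seq2). The labels describe instead Trizol extraction and a TruSeq kit with 1 µg of total RNA, and which was used could not be told from the values. Oligo-dT primes on poly(A) tails, so that histone mRNAs ending in the stem-loop without a tail are largely missed by it. If it was used, the levels and changes below describe only the histone RNA that was captured, and not all histone mRNA of the cells. Every value below is FPKM, the fragments per kilobase of transcript scaled to the mapped fragments of the library, as the authors deposited it, with 1 value per gene symbol and library.

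Histones package DNA, and most of them are made in S phase from clustered genes without introns whose mRNAs end in a conserved stem-loop in place of a poly(A) tail. The stem-loop is bound by SLBP and directs the processing of the 3′ end, while some histone genes also give longer, polyadenylated transcripts in cells that have left the cell cycle. Meiotic prophase follows the last S phase of the germ line, and male germ cells also use testis variants such as the linker histone H1t and the core histones TH2A and TH2B, before protamines replace most histones in spermatids.

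Cnot4 itself was listed at 36.0 and 34.9 FPKM in the WT LZ libraries, 76.6 and 73.1 in WT PD, 43.2 and 34.6 in the mutant LZ libraries and 65.9 and 53.5 in mutant PD. Both Cnot4-null PD values lay below both WT PD values, and the LZ values of the genotypes overlapped. The differences of log2(FPKM + 1) between the genotypes were 0.12 at LZ and -0.33 at PD and were not called (limma, adjusted p = 1.0 and 0.192, each with a standard error of 0.20). One value per gene cannot show the loss of exon 2, so the genotype of each library rests on its label.

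The stage labels were checked against marker genes. All 8 markers of PD spermatocytes were higher at PD in both genotypes, and their summed FPKM was 275.4 and 388.0 in WT LZ, 13040 and 12200 in WT PD, 285.9 and 127.2 in Cnot4-null LZ and 6194 and 2419 in Cnot4-null PD, with Ldhc as the most abundant. Of the 8 listed LZ markers 7 were found, and 4 of them were lower and 1, Spo11, higher at PD in WT. Their sums were 1681 and 1961 in WT LZ, 1234 and 1285 in WT PD, 3556 and 2010 in Cnot4-null LZ and 1023 and 640.9 in Cnot4-null PD, and the most abundant was Sycp3. In Cnot4-null 6 were lower and 1 higher at PD.

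The Cnot4-null PD libraries also differed from the WT PD libraries in the markers of other cells. The sums of the 6 spermatid markers were 1832 and 1514 FPKM in WT LZ, 416.8 and 260.0 in WT PD, 4033 and 707.8 in Cnot4-null LZ and 15800 and 7123 in Cnot4-null PD, with Prm1 the most abundant, and all 6 rose at PD in the mutant against WT. The 8 spermatogonial markers, led by Stra8 (which is also among the LZ markers) and Uchl1, summed to 1047 and 975.6, 28.3 and 19.4, 1076 and 1007, and 552.2 and 594.6 in the same order of groups. All 8 rose at PD against WT, and the Cnot4-null PD sums lay between those of WT PD and those of the LZ libraries. The 6 Leydig cell markers, led by Insl3, summed to 16.8 and 9.89 in WT LZ, 115.5 and 7.07 in WT PD, 10.8 and 19.0 in Cnot4-null LZ and 10020 and 22200 in Cnot4-null PD, and all 6 rose. In each of these 3 lists both WT PD libraries lay far below both PD libraries of the mutant.

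Other somatic markers were lower than the Leydig markers in the Cnot4-null PD libraries. Those of Sertoli cells, 7 found of 8 with Clu the most abundant, summed to 65.7 and 58.9 in WT LZ, 8.83 and 16.5 in WT PD, 6.78 and 10.1 in Cnot4-null LZ and 99.9 and 205.2 in Cnot4-null PD. Of these, Amh and Fshr were at 0 or under 0.2 in every library and were not tested. The 6 macrophage markers, led by Lyz2, summed to 35.7 and 0.915, 2.75 and 1.60, 12.2 and 2.51, and 24.3 and 108.5 in that order of groups, and the 4 peritubular markers, led by Acta2, to 0.492 and 0.787, 1.39 and 1.03, 0.577 and 0.174, and 50.2 and 244.6. At PD, 3 of the 5 tested Sertoli, 3 of the 6 macrophage and all 4 peritubular markers were called higher in Cnot4-null than in WT. The 3 red blood cell genes were listed at 0 in every library.

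**Figure D1:**
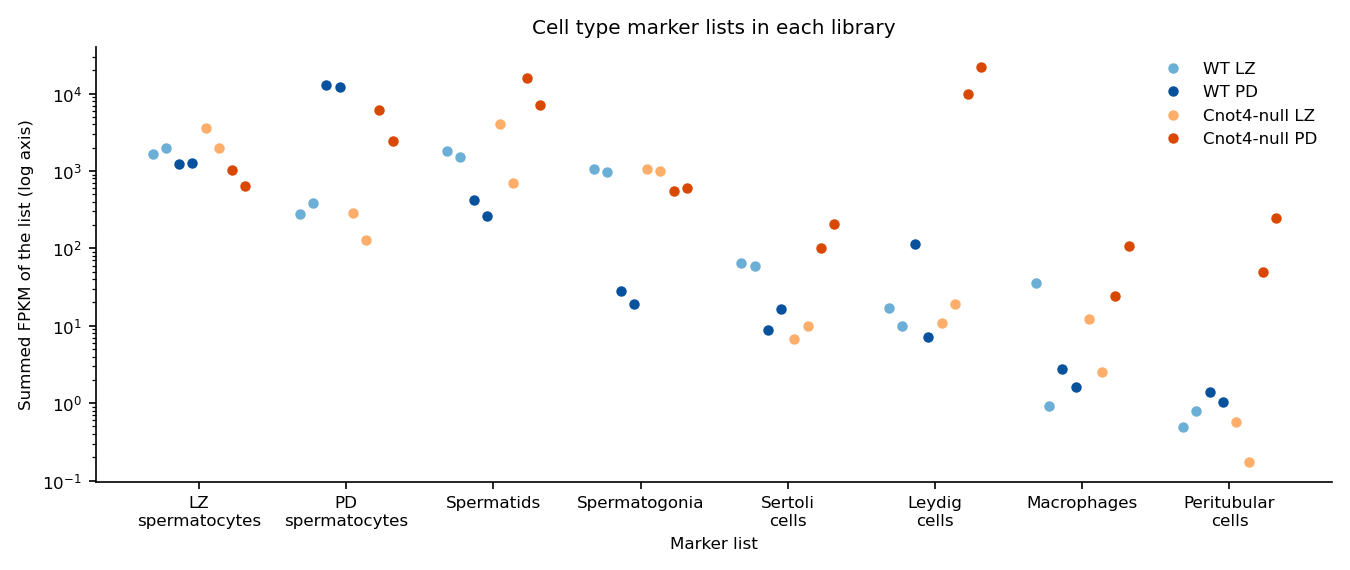
Summed FPKM (log axis) of 8 marker lists, with 1 point per library coloured by group. The Leydig list lies at 10020 and 22200 in the Cnot4-null PD libraries and at most at 115.5 in the other 6.

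The 68 members differed widely in level. Of these, 13 were listed at 0 in all 8 libraries, 9 never passed 1 FPKM, and 46 passed 1 FPKM in at least 1 library and were tested, so 22 of the 68 were not. Only 16 exceeded 10 FPKM in some library. By family 4 of 6 H1, 11 of 18 H2A, 11 of 19 H2B, 8 of 12 H3 and 12 of 13 H4 genes were tested, and no H3 gene passed 10 FPKM. The highest single value was 128.1 FPKM, for Hist1h2bp in Cnot4-null PD replicate 1, followed by 112 FPKM for Hist1h4d in WT LZ replicate 2.

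Most values of a gene are multiples of the FPKM of 1 read, and whole read numbers were recovered from these steps for 49 members. For each member the largest step that fits was kept, so the recovered numbers are the smallest that fit. They are too low where all read numbers of a member share a factor. A further 6 had a single value above 0, which gives no step. Hist1h2be, listed at 5.27e-08 FPKM in Cnot4-null PD replicate 2, was counted there as 0 reads. Among the 49, 25 reached 10 reads in some library and 24 did not, and the median of the highest read number was 10. The recovered reads of these members summed to 446 and 600 in WT LZ, 1207 and 1334 in WT PD, 539 and 532 in Cnot4-null LZ and 1025 and 586 in Cnot4-null PD. Hist1h4d at 94.1 FPKM in WT LZ replicate 1 rested on 67 reads and Hist2h2be at 31.3 FPKM in WT PD replicate 1 on 589 reads, since the gene models differ in length. Depth relative to WT LZ replicate 1 was taken as the commonest ratio among genes of low FPKM (limit 1). Between 1387 and 2509 genes were compared per library, and 116 to 288 of them lay at that ratio. The depths were 1.06 for WT LZ replicate 2, 1.21 and 1.33 for WT PD, 0.935 and 1.06 for Cnot4-null LZ and 1.00 and 0.823 for Cnot4-null PD. They did not follow the read totals given for the libraries in the supplement of the paper, and the cause was not tested.

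Many histone genes are near copies of each other. All 13 H4 genes encode 1 protein, the 11 H3 genes with a coding sequence encode 3 proteins, the 18 H2A genes 9, the 18 H2B genes with a coding sequence 12 and the 6 H1 genes 6. Because the authors kept uniquely mapped reads of 50 bases, the exons were scanned in windows of 50 bases. At least 50% of the windows occurred once in the genome in 37 members, of which 30 were tested, and in the other 31 members, of which 16 were tested, fewer did. Of the 13 members listed at 0 everywhere, 12 belonged to the second class, and in Hist1h2ao, Hist1h2ap, Hist1h2bq, Hist1h2br, Hist2h2aa1 and Hist2h2aa2, 0% of the windows were unique. These 6 genes were singled out after the values were seen, and for such genes a listed 0 does not show that the gene was silent. Among members whose changes are described below, Hist1h2bc (49.2%), Hist2h3c1 (42.7%) and Hist1h4m (10.2%) also lay below 50%.

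**Figure D2:**
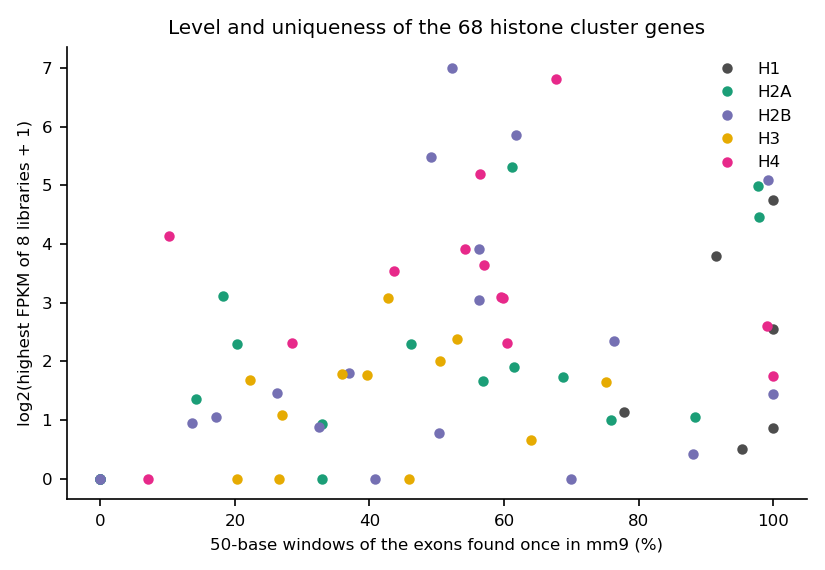
Share of the 50-base exon windows found once in mm9 (x, percent) against the highest level of each of the 68 members (y, log2 of FPKM + 1), coloured by family. Of the 13 members at 0, 12 lie below 50%.

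The members lie at 4 places of the genome (mm9). Chromosome 13 holds 54 of them between 21807632 and 24026720, chromosome 3 holds 10 between 96023839 and 96082924, chromosome 11 holds 3 and chromosome 6 holds Hist4h4 alone. On chromosomes 13, 3 and 11 there are 13 pairs of an H2A and an H2B gene that start head to head within 305 bases of each other. The partners were often listed at unlike levels. Hist1h2ba and Hist1h2aa, which encode TH2B and TH2A, reached 57.2 and 30.8 FPKM, whereas Hist1h2ac reached 1.07 beside 43.6 for Hist1h2bc, Hist1h2bn 0.94 beside 38.7 for Hist1h2ak, and Hist1h2an 1.56 beside 128.1 for Hist1h2bp. Only 13.6% of the 50-base windows of Hist1h2bn and 14.2% of those of Hist1h2an were unique, so their low values say little about their transcription.

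The histone stem-loop was searched for within 200 bases after the stop codon in the GENCODE gene models. In 42 members the model ended no more than 100 bases past the stem-loop, in 21 it ran on for more than 100 bases past it, in 3 with a coding sequence (Hist1h2an, Hist2h2bb and Hist2h2be) none was found, and 2 had no coding sequence. Of the 42, the model of 13 stopped before the stem-loop, that of 2 inside it and that of 27 at most 74 bases after it. Sites of members whose levels are described below are shown, 5′ to 3′ on the strand of the gene, so that both kinds of gene model can be seen. The first set is of the 42, with the stem-loop in capitals. In Hist1h2aa and Hist1h2ba it lies wholly beyond the end of the model, and the model of Hist1h2ak ends inside it. They lie at chr13:23673812-23673841 (Hist1h4d, plus strand), chr13:23789951-23789980 (Hist1h4c, minus), chr13:23849228-23849257 (Hist1h4b, plus), chr13:23623320-23623349 (Hist1h4h, plus), chr13:23856254-23856283 (Hist1h1a, plus), chr13:21845244-21845273 (Hist1h2ak, minus), chr13:24026753-24026782 (Hist1h2aa, plus) and chr13:24025592-24025621 (Hist1h2ba, minus).
Hist1h4d: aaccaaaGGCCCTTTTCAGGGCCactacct
Hist1h4c: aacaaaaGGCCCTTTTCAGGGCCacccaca
Hist1h4b: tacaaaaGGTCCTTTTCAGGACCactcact
Hist1h4h: aaccaaaGGCCCTTTTCAGGGCCgcccaca
Hist1h1a: acccaacGGCTCTTTTCAGAGCCaccaaca
Hist1h2ak: caccaaaGGCTCTTTTCAGAGCCacctaca
Hist1h2aa: acaaaaaGGCTCTTTTCAGAGCCaccttca
Hist1h2ba: acccaaaGGCTCTTTTAAGAGCCacccacc

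In the second set the model runs on past the stem-loop to a polyadenylation signal, AATAAA, near its end. No exon of the Hist1h2bc transcript, nor of 1 of the 2 Hist1h2bp transcripts, holds the whole stem-loop. The stem-loops lie on the plus strand at chr13:23831374-23831403 (Hist1h1c), chr13:23776509-23776538 (Hist1h2bc), chr13:21879785-21879814 (Hist1h2bp), chr3:96051243-96051272 (Hist2h3c1) and chr13:23788387-23788416 (Hist1h1t).
Hist1h1c: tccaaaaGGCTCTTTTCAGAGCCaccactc
Hist1h2bc: ttccaaaGGCTCTTTTCAGAGCCacccact
Hist1h2bp: acacaaaGGCTCTTTTCAGAGCCacccaca
Hist2h3c1: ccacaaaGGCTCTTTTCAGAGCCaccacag
Hist1h1t: acccaaaGGCTCTTTTAAGAGCCacttaca

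The last AATAAA of the same models, with Hist2h2be, in which no stem-loop was found, is in capitals in the third set. After the signal the model goes on for between 15 and 21 bases. They lie on the plus strand at chr13:23832199-23832228 (Hist1h1c), chr13:23784319-23784348 (Hist1h2bc), chr13:21881048-21881077 (Hist1h2bp), chr3:96052398-96052427 (Hist2h3c1), chr13:23788556-23788585 (Hist1h1t) and chr3:96027628-96027657 (Hist2h2be). A match to these letters is a description of the model and does not show which 3′ end the RNA had.
Hist1h1c: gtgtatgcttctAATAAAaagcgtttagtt
Hist1h2bc: tgatgtatatatAATAAAtgtcatgtaaag
Hist1h2bp: atacattataaaAATAAAggtttcaatcta
Hist2h3c1: ttttttaatcccAATAAAaatttaacacac
Hist1h1t: gctttacgccagAATAAAggtcaccattga
Hist2h2be: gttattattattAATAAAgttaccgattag

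Summed over all 68 members, the level was 271.4 and 350.4 FPKM in WT LZ, 145.5 and 139.8 in WT PD, 367.0 and 324.1 in Cnot4-null LZ and 256.0 and 205.3 in Cnot4-null PD. The 4 LZ libraries lay above the 4 PD libraries, and the Cnot4-null PD sums lay above those of WT PD. As a share of all FPKM in the library these were 0.0357 and 0.0498%, 0.0171 and 0.0165%, 0.0447 and 0.0463%, and 0.0287 and 0.0304%, in the same order. Members listed at 0 numbered 28 and 24 in WT LZ, 47 and 48 in WT PD, 29 and 30 in Cnot4-null LZ and 35 and 33 in Cnot4-null PD.

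The make-up of the sum also differed between the stages. Hist1h4d held the largest share in the LZ libraries, 34.7 and 31.9% in WT and 28.7 and 25.8% in Cnot4-null, and Hist1h2bp in the PD libraries, 24.8% in each of WT and 50.04 and 27.6% in Cnot4-null. The H4 genes summed to 150.9 and 179.7 FPKM in WT LZ, 32.3 and 25.4 in WT PD, 167.2 and 151.1 in Cnot4-null LZ and 28.95 and 46.6 in Cnot4-null PD. The H2B genes summed to 47.6 and 91.1, 71.2 and 76.0, 87.8 and 53.8, and 175.4 and 115.5 in that order of groups. The H4 sum was thus low in all PD libraries, while the H2B sum was highest in the Cnot4-null PD libraries.

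The H1 and H3 sums lay below the H4 and H2B sums in every library, and the H2A sums in most. H2A sums were 40.9 and 47.5 FPKM in WT LZ, 26.7 and 24.9 in WT PD, 72.2 and 82.6 in Cnot4-null LZ and 32.4 and 16.6 in Cnot4-null PD. The top H2A gene was Hist1h2aa in WT LZ, Hist3h2a in WT PD with 78.4 and 84.8% of the sum, and Hist1h2ak in Cnot4-null LZ with 53.6 and 43.3%. H1 sums were 23.1 and 26.2, 5.21 and 4.52, 30.03 and 30.3, and 10.6 and 19.2, led by Hist1h1a at LZ, by Hist1h1t in WT PD with 93.7 and 95.2%, and by Hist1h1c in Cnot4-null PD with 61.3 and 67.5%. H3 sums lay between 5.95 and 10.1 FPKM in all 8 libraries. The 3 testis genes summed to 41.1 and 70.7 in WT LZ, 9.79 and 14.0 in WT PD, 79.4 and 69.2 in Cnot4-null LZ and 15.6 and 9.66 in Cnot4-null PD.

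**Figure D3:**
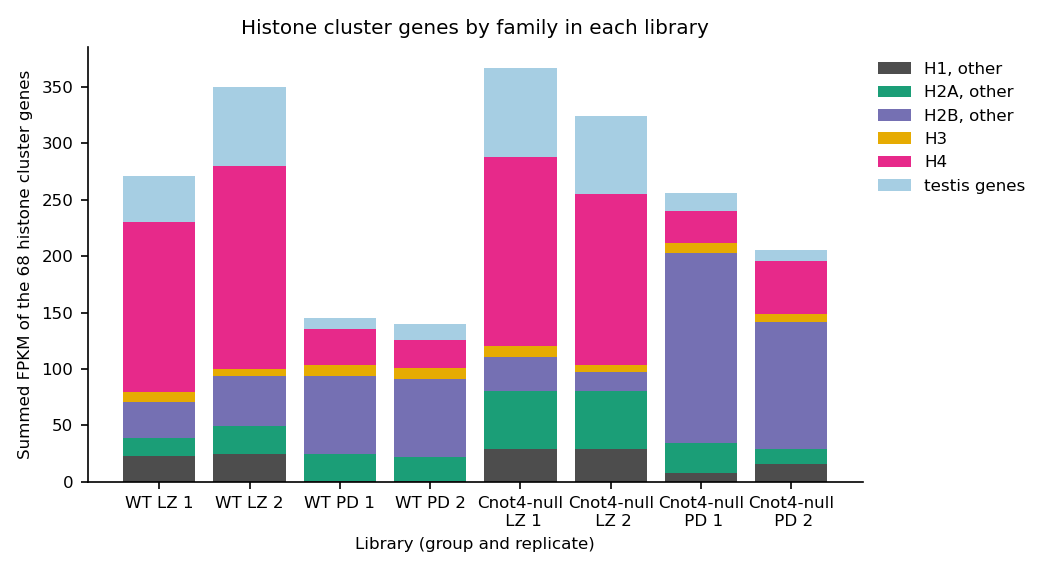
Summed FPKM of the 68 histone cluster genes in each of the 8 libraries, stacked by family with the 3 testis genes apart. The sums run from 139.8 in WT PD replicate 2 to 367.0 in Cnot4-null LZ replicate 1.

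In WT, most histone cluster genes that changed between the stages were lower at PD, as were most of all tested genes that changed. The replication-type H4 genes Hist1h4d and Hist1h4c, the linker histone Hist1h1a and the testis genes Hist1h2aa and Hist1h2ba fell, and Hist2h2be, Hist1h2bp, Hist2h3c1, Hist1h4h, Hist1h4b, Hist3h2a and the testis linker histone Hist1h1t rose. Changes are given as differences of log2(FPKM + 1), tested with limma over all 15899 genes above 1 FPKM in at least 1 library, and a gene is called at an adjusted p under 0.05. Of the 46 tested members 27 were called, 58.7%, close to the 57.8% of all tested genes, with 8 higher beside a background of 21.6% and 19 lower beside 36.2%. The count was 15 without either WT PD library. Over all 68 members the median change was -0.40, against 0.00 over all symbols, and it was 0.00 without WT LZ replicate 2. Fewer cells of a type and less RNA per cell cannot be told apart in these libraries.

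Hist1h4d, the most abundant H4 gene, reached 94.1 and 112 FPKM in WT LZ and only 2.31 and 4.24 in WT PD. The stages were far apart, and the PD values rested on 2 and 4 reads. The change was -4.63 (limma, standard error 0.36, adjusted p = 5.64e-05, n = 2 libraries per group here and below). Hist1h4c, with 32.3 and 35.9 FPKM in WT LZ and 2.31 and 2.12 in WT PD, showed the same pattern with no overlap. Its change was -3.45 (limma, standard error 0.93, adjusted p = 0.0151), a call that ended without WT LZ replicate 1 or 2, without WT PD replicate 1 or 2, with no filter and under quantile normalization. Hist1h4m went from 7.74 and 11.0 to 1.27 and 0 FPKM, so both LZ libraries were higher, and fell by 2.76 (limma, adjusted p = 0.0146), a call lost without WT LZ replicate 1 or 2 or WT PD replicate 2, with no filter and with a pseudocount of 0.1.

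A pair of H4 genes moved the other way. Hist1h4h was at 2.27 and 0 FPKM in WT LZ and at 14.0 and 12.8 in WT PD, 30 reads in each PD library. It was high in both PD libraries alone, and rose by 3.0 (limma, standard error 0.86, adjusted p = 0.0192), but not without WT LZ replicate 2, WT PD replicate 1 or WT PD replicate 2, with no filter or with a pseudocount of 0.1. Hist1h4b was at 1.41 and 0 FPKM in WT LZ and 11.6 and 4.24 in WT PD, again without overlap. Its rise of 2.39 (limma, standard error 0.52, adjusted p = 0.00586) rested on at most 10 recovered reads a library. Together 2 of the 12 tested H4 genes rose and 5 fell, beside 21.6% and 36.2% of all tested genes. The median over all 13 was -1.79.

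Among the H1 genes, Hist1h1a had 20.1 and 20.3 FPKM in WT LZ and 0.236 and 0.216 in WT PD, 1 read in each of the last. It was high at LZ and near 0 at PD in both libraries of each stage, a change of -4.11 (limma, standard error 0.22, adjusted p = 2e-05). Hist1h1c went from 1.72 and 3.36 FPKM to 0.0944 and 0, was higher in both LZ libraries, and fell by 1.72 (limma, standard error 0.38, adjusted p = 0.00599). Hist1h1t, the testis linker histone gene, was at 0.439 and 1.25 FPKM in WT LZ and 4.88 and 4.31 in WT PD. Its PD libraries were both the higher ones, with a rise of 1.64 (limma, standard error 0.34, adjusted p = 0.00465). It was the called H1 gene of 4 tested that rose and 2 fell, beside 21.6% and 36.2% of all tested genes.

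The other testis genes moved opposite to Hist1h1t. Hist1h2aa had 25.1 and 22.9 FPKM in WT LZ but 2.06 and 3.15 in WT PD, and Hist1h2ba, its head-to-head neighbour, at 15.5 and 46.5 and at 2.84 and 6.51. Both genes were higher in each LZ library than in either PD library. The changes were -2.81 for Hist1h2aa and -2.38 for Hist1h2ba (limma, standard errors 0.33 and 0.59, adjusted p = 0.000296 and 0.0101), and the second call was lost without WT LZ replicate 2, without WT PD replicate 1 and with no filter. Among the other H2A genes, Hist3h2a had 4.88 and 7.33 FPKM in WT LZ and 20.9 and 21.1 in WT PD. The PD libraries were the higher ones with 292 and 321 reads, a rise of 1.65 (limma, adjusted p = 0.0389) that was not called in 8 alternatives, among them quantile normalization, no filter and leaving out either WT LZ, either WT PD or either Cnot4-null LZ library. Of 11 tested H2A genes, 1 rose and 3 fell, beside 21.6% and 36.2% of all tested genes.

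Of the 11 tested H2B genes 7 fell in WT, beside 36.2% of all tested genes. Of these, Hist1h2bj and Hist1h2bk had at most 3 and 2 recovered reads in any library. Hist1h2bm was at 8.78 and 14.1 FPKM in WT LZ and 0.723 and 0 in WT PD, and Hist1h2bb at 5.89 and 7.25 and at 0 and 0.444. In both genes the LZ libraries lay above the PD libraries, with changes of -3.21 and -2.65 (limma, adjusted p = 0.00113 and 0.000911). Hist1h2bc had 2.08 and 5.34 FPKM in WT LZ but 0 and 0.224 in WT PD, also without overlap. It fell by 2.0 (limma, adjusted p = 0.0239), a call lost without WT LZ replicate 2, WT PD replicate 1 or WT PD replicate 2, with no filter and under quantile normalization.

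Of the 11 tested H2B genes 2 rose, Hist2h2be and Hist1h2bp, beside 21.6% of all tested genes. Hist2h2be was at 0.709 and 0.0610 FPKM in WT LZ and 31.3 and 33.1 in WT PD, or 11 and 1 against 589 and 682 reads. Both PD libraries were high and both LZ libraries near 0, a rise of 4.62 (limma, standard error 0.47, adjusted p = 0.000157). Hist1h2bp went from 5.19 and 6.79 to 36.1 and 34.6 FPKM. The stages did not overlap and the rise was 2.39 (limma, standard error 0.63, adjusted p = 0.0132), with the call lost without WT LZ replicate 1, WT PD replicate 1 or WT PD replicate 2 and with no filter.

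H3 genes were low throughout. Hist2h3c1, on chromosome 3, had 0.0960 and 0.635 FPKM in WT LZ and 7.51 and 6.15 in WT PD, so it was high at PD in both libraries. It rose by 2.54 (limma, standard error 0.33, adjusted p = 0.000467). Hist2h3c2, which has no coding sequence in its model and was named after its values were seen, was at 0 and 0.721 in WT LZ and 2.197 and 2.44 in WT PD, and was the other H3 rise (limma, 1.34, adjusted p = 0.0079). The falls were Hist1h3c, from 2.25 and 0.533 FPKM to 0 in both PD libraries, and Hist1h3h, from 2.19 and 1.04 to 0 in both, the second named after its values were seen. Hist1h3c had an adjusted p of 0.0495 (limma) and was not called in 9 of 14 alternatives. Hist1h3a, at 2.83 and 0.892 FPKM in WT LZ and 0.388 and 0.356 in WT PD, was not called (limma, -0.97, adjusted p = 0.0721). By place, 18 of the 37 tested members on chromosome 13 fell and 4 rose, and of the 6 on chromosome 3 none fell and 3 rose (limma, 3 with an unadjusted p under 0.05), beside 36.2% and 21.6% of all tested genes. A difference between the chromosomes was not tested.

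**Figure D4:**
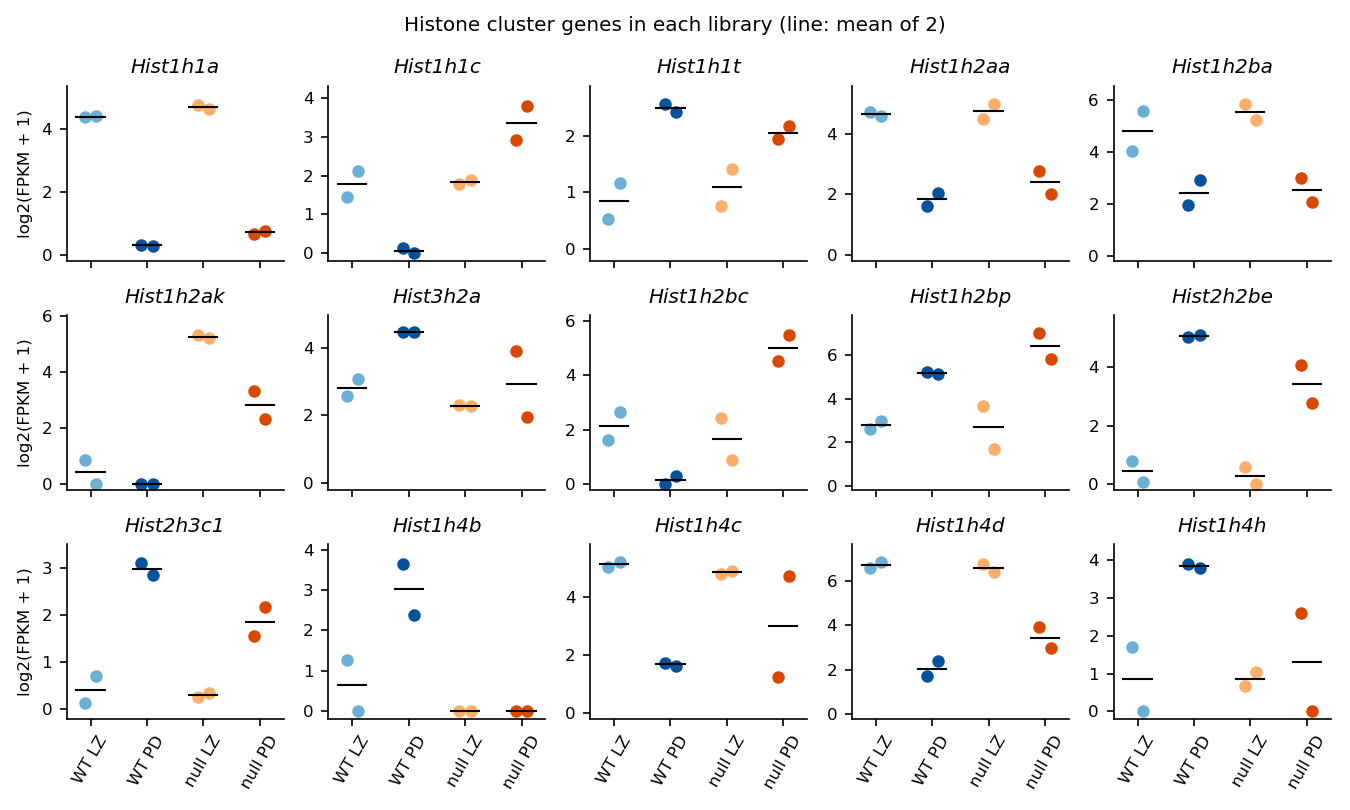
Level of 15 histone cluster genes, log2(FPKM + 1), with 1 point per library in the 4 groups and a line at the mean of 2. Hist1h4d runs from 112 FPKM in WT LZ to 2.31 in WT PD, and Hist2h2be from 0.0610 to 33.1.

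In Cnot4-null cells, Hist1h4d, Hist1h1a, Hist1h2aa and Hist1h2ba again fell from LZ to PD, and Hist1h2bp, Hist2h2be and Hist2h3c1 rose. Hist1h2bc and Hist1h1c, which fell in WT, rose here. So did all 6 Leydig, all 6 spermatid, all 4 peritubular, 3 of 6 macrophage and 2 of 5 tested Sertoli markers. Of the 8 spermatogonial markers 2 fell and none rose, and the part of such cells was not tested. Of 46 tested members 18 were called, 39.1% beside 46.0% of all tested genes, 6 higher (background 27.8%) and 12 lower (18.2%). Without Cnot4-null LZ replicate 2 the count was 11. The median over all 68 was 0.00, as over all symbols.

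Hist1h4d had 105 and 83.7 FPKM in Cnot4-null LZ, against 14.0 and 6.83 in Cnot4-null PD. Both LZ libraries were several times higher than both PD libraries, and the change was -3.13 (limma, standard error 0.36, adjusted p = 0.000829). Hist1h4c had 27.0 and 29.2 FPKM in Cnot4-null LZ, 1.40 in Cnot4-null PD replicate 1 and 25.6 in replicate 2. The second PD library thus lay near the LZ libraries and the first did not, on 1 and 15 reads, and the gene was not called (limma, -1.87, standard error 0.93, adjusted p = 0.14). Hist1h4m, at 16.6 and 9.52 against 0 and 3.76 FPKM, was higher in both LZ libraries and fell by 2.64 (limma, adjusted p = 0.0238), a call lost without Cnot4-null LZ replicate 1 or 2 or Cnot4-null PD replicate 1, with no filter, with a pseudocount of 0.1 and with only the compared libraries. No H4 gene of 12 rose and 4 fell (limma, 4 with an unadjusted p under 0.05), beside 27.8% and 18.2% of all tested genes.

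The linker histones split. Hist1h1a reached 26.0 and 24.1 FPKM in Cnot4-null LZ but only 0.571 and 0.696 in Cnot4-null PD, with no overlap and a change of -4.0 (limma, standard error 0.22, adjusted p = 0.000203). Hist1h1c went from 2.45 and 2.71 to 6.52 and 12.95 FPKM, or from 20 and 25 to 57 and 93 reads. Both PD libraries were higher, a rise of 1.52 (limma, standard error 0.38, adjusted p = 0.0151) that was not called without either Cnot4-null LZ library, with no filter, under quantile normalization, or when every library was rescaled to a common median. Hist1h1t had 0.705 and 1.66 FPKM at LZ and 2.85 and 3.47 at PD. The PD libraries were the higher ones, but the difference of 0.96 was not called (limma, standard error 0.34, adjusted p = 0.0535).

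Of the testis core histone genes, Hist1h2aa had 21.5 and 30.8 FPKM in Cnot4-null LZ, against 5.83 and 3.05 in Cnot4-null PD, and Hist1h2ba at 57.2 and 36.8 and at 6.89 and 3.15. Every LZ value lay above every PD value for both. The changes were -2.35 and -3.04 (limma, standard errors 0.33 and 0.59, adjusted p = 0.00169 and 0.00561). Hist1h2ak, an H2A gene, fell from 38.7 and 35.8 to 9.02 and 3.997 FPKM. All 4 values were above those of WT, and the change between the stages was -2.43 (limma, adjusted p = 0.00348), a call lost with a pseudocount of 0.1. Hist3h2a was at 3.91 and 3.79 FPKM at LZ and at 13.9 and 2.86 at PD, so the PD libraries fell on either side of the LZ ones, and was not called (limma, 0.64, adjusted p = 0.377).

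In the H2B family 3 of 11 tested genes rose and 3 fell, beside 27.8% and 18.2% of all tested genes. Hist1h2bp went from 11.5 and 2.26 FPKM in Cnot4-null LZ to 128.1 and 56.7 in Cnot4-null PD. The PD libraries were far higher, though the replicates of each stage also differed, and the rise was 3.76 (limma, standard error 0.63, adjusted p = 0.00312). Hist1h2bc went from 4.45 and 0.843 to 21.9 and 43.6 FPKM, with no overlap and a rise of 3.34 (limma, standard error 0.60, adjusted p = 0.00429). For Hist2h2be the values were 0.482 and 0 at LZ and 15.9 and 5.87 at PD, the latter on 247 and 75 reads. Both PD libraries were again the high ones, with a rise of 3.14 (limma, standard error 0.47, adjusted p = 0.00211).

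Hist2h3c1, of the H3 family, had 0.205 and 0.272 FPKM in Cnot4-null LZ, against 1.91 and 3.498 in Cnot4-null PD. It was higher in both PD libraries and rose by 1.55 (limma, standard error 0.33, adjusted p = 0.00835), a call lost under quantile normalization. Hist1h3c had 4.22 and 2.67 FPKM at LZ and 0.562 and 0 at PD. Both LZ libraries were higher, and it fell by 1.81 (limma, adjusted p = 0.0121), but was not called without Cnot4-null LZ replicate 1 or Cnot4-null PD replicate 2. Hist1h2bm went from 2.82 and 6.64 FPKM to 0.875 and 0, also with no overlap, and fell by 1.98 (limma, adjusted p = 0.0159), a call lost without Cnot4-null LZ replicate 2 or Cnot4-null PD replicate 2, with no filter and with a pseudocount of 0.1.

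At LZ the genotypes differed in 1 histone cluster gene. Hist1h2ak, a single-exon H2A gene on chromosome 13 (21845264 to 21845776, minus strand), had 0.823 and 0 FPKM in WT LZ, against 38.7 and 35.8 in Cnot4-null LZ, or 1 and 0 against 44 and 46 reads. Both Cnot4-null libraries were high and both WT libraries at or near 0. It was the only member called of 46 (2.17%), where limma called 15 of all tested genes, 0.0943%, with 11 higher (0.0692%) and 4 lower (0.0252%). The median over the 68 members was 0.00.

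The difference for Hist1h2ak was 4.82 (limma, standard error 0.42, adjusted p = 0.0105). It ranged from 4.39 to 6.94 over the alternatives and was called in 8 of 15 settings, but not without WT LZ replicate 2, either WT PD library or either Cnot4-null LZ library, with no filter or with a pseudocount of 0.1 (adjusted p from 0.0059 to 0.116, limma). The gene was also listed at 0 in both WT PD libraries, against 9.02 and 3.997 FPKM in mutant PD, so each of the 4 Cnot4-null libraries lay above each of the 4 WT libraries. In its exon 61.2% of the 50-base windows were unique, and no other member encodes the same protein. Its head-to-head neighbour Hist1h2bn, 215 bases away, had at most 0.939 FPKM in every library, but with 13.6% unique windows.

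No other member was called at LZ, where limma gave 6 members, Hist1h2ak among them, an unadjusted p under 0.05. Hist1h4d had 94.1 and 112 FPKM in WT LZ, against 105 and 83.7 in Cnot4-null LZ, Hist1h1a at 20.1 and 20.3 and at 26.0 and 24.1, and Hist1h2aa at 25.1 and 22.9 and at 21.5 and 30.8. The genotypes overlapped for Hist1h4d and Hist1h2aa, and both Hist1h1a values were higher in Cnot4-null without a call (limma, 0.30). Hist1h2ba, at 15.5 and 46.5 against 57.2 and 36.8 FPKM, overlapped between the genotypes (limma, 0.74, adjusted p = 0.952). Hist1h2bm, at 8.78 and 14.1 in WT LZ and 2.82 and 6.64 in Cnot4-null LZ, did not overlap, and its difference of -1.17 was not called (limma, adjusted p = 0.785).

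At PD, 6 histone cluster genes were higher in Cnot4-null than in WT and 4 were lower. Hist1h2bc, Hist1h1c and Hist1h2ak were the largest rises, and Hist1h2bb, Hist1h4d and Hist1h3h were also called higher, the last named after its values were seen. Hist1h4b, Hist1h4h, Hist2h2be and Hist2h3c1 fell. Of 46 tested members 10 were called, 21.7%, while 53.1% of all tested genes were, with 6 higher beside 41.6% and 4 lower beside 11.5%. The median over all 68 was 0.03, against 0.17 over all symbols.

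These counts move with the scaling of the libraries. The median change of all tested genes was 0.66 at PD as deposited, -0.10 under quantile normalization and -0.21 with every library rescaled to a common median, with 6619 genes higher and 1830 lower, 2835 and 4078, and 3724 and 6376. The members split 6 higher and 4 lower as deposited, 3 and 8 under quantile normalization and 3 and 7 under rescaling. For the other comparisons the 3 medians were -0.32, -0.06 and 0.05 in WT, 0.19, -0.29 and -0.23 in Cnot4-null, 0.00, 0.01 and 0.02 at LZ, and 0.64, -0.13 and -0.30 for the interaction. The members split 8 and 19, 7 and 18, and 8 and 19 in WT, and 6 and 12, 3 and 16, and 5 and 14 in Cnot4-null. The count at PD was 13 without Cnot4-null PD replicate 1, 7 without replicate 2, 4 without WT PD replicate 1 and 5 without WT PD replicate 2.

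Hist1h2bc, an H2B gene whose model has a second exon beyond the stem-loop, had 0 and 0.224 FPKM in WT PD, against 21.9 and 43.6 in Cnot4-null PD, or 0 and 1 against 74 and 121 reads. Both Cnot4-null libraries were high and both WT libraries at or near 0. The difference was 4.85 (limma, standard error 0.60, adjusted p = 0.000869), or 4.19 relative to the median of all genes, and it was called in every alternative that tested it. Hist1h1c, a linker histone gene whose model runs past the stem-loop, was at 0.0944 and 0 FPKM in WT PD but at 6.52 and 12.95 in Cnot4-null PD, again without overlap. It rose by 3.29 (limma, standard error 0.38, adjusted p = 0.000643), 2.63 relative to the median, and was also called in all alternatives that tested it.

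For both Hist1h2bc and Hist1h1c the second Cnot4-null PD library was the higher one. The Leydig, Sertoli, macrophage and peritubular marker sums were likewise higher in that library than in Cnot4-null PD replicate 1, as was the spermatogonial sum by less (594.6 against 552.2). The cells had been sorted on Hoechst and propidium iodide and their purity examined by immunofluorescence for SYCP3 and pH2AX, and the part of those other cells in these levels was not tested. Hist1h2ak had 0 FPKM in both WT PD libraries and 9.02 and 3.997 in Cnot4-null PD, on 11 and 4 reads, which gives no fold (limma, adjusted p = 0.00176, from 0.00181 to 0.0195 over the alternatives). It was higher in both mutant libraries.

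Weaker rises were those of Hist1h4d and Hist1h2bb, which like the 8 spermatogonial markers were lower in WT PD than in Cnot4-null PD. Of the Cnot4-null PD libraries, replicate 1 was the higher for Hist1h4d. Replicate 2 was the higher for Hist1h2bb and for the spermatogonial sum (552.2 and 594.6). The part of such cells was not tested. Hist1h4d had 2.31 and 4.24 FPKM in WT PD, against 14.0 and 6.83 in Cnot4-null PD, both the latter higher. Its difference of 1.38 (limma, standard error 0.36, adjusted p = 0.0167), 0.72 relative to the median, was not called without WT PD replicate 1 or Cnot4-null PD replicate 1, with only the compared libraries, with no filter, under quantile normalization or under rescaling. Hist1h2bb, at 0 and 0.444 against 1.76 and 2.86 FPKM, was higher in both Cnot4-null libraries on 3 and 4 reads. Its rise of 1.44 (limma, standard error 0.40, adjusted p = 0.0194), 0.78 relative to the median, was lost without WT PD replicate 1 or 2 or Cnot4-null PD replicate 2, with no filter and under both scalings. In Hist1h3h the WT PD libraries were at 0 and those of the mutant at 1.09 and 1.33 FPKM (limma, adjusted p = 0.0433). The smallest read number that fits was 1 in each mutant library. Its step of 1.0955 FPKM was above the 0.7513 of Hist1h3b, which has a coding sequence of the same length, so 1 may be too low.

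The falls at PD were in genes that had risen in WT between the stages. Both comparisons use the same WT PD libraries, so a high value there moves both, and nothing is read from the match. Hist1h4b had 11.6 and 4.24 FPKM in WT PD but 0 in both Cnot4-null PD libraries, which gives no fold, and was called in every alternative that tested it (limma, adjusted p = 0.00332). Hist1h4h had 14.0 and 12.8 FPKM in WT PD, against 5.10 and 0 in Cnot4-null PD. Both mutant libraries were lower, and the gene fell by 2.55 (limma, standard error 0.86, adjusted p = 0.0404), a call lost without WT PD replicate 1 or 2, Cnot4-null LZ replicate 1 or 2 or Cnot4-null PD replicate 2, with no filter, with a pseudocount of 0.1 and with only the compared libraries.

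Hist2h2be had 31.3 and 33.1 FPKM in WT PD, against 15.9 and 5.87 in Cnot4-null PD, and Hist2h3c1 at 7.51 and 6.15 and at 1.91 and 3.498. In both genes the mutant libraries lay below the WT libraries. The differences were -1.62 and -1.11 (limma, standard errors 0.47 and 0.33, adjusted p = 0.024 and 0.0267), or -2.29 and -1.77 relative to the median. Neither was called without WT PD replicate 1 or 2, with no filter or with a pseudocount of 0.1, and in addition Hist2h2be was lost without Cnot4-null PD replicate 2 and Hist2h3c1 without replicate 1. The PD marker sum was also lower in both Cnot4-null PD libraries, and its part in these falls was not tested.

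Hist1h2bp, the most abundant member at PD, had 36.1 and 34.6 FPKM in WT and 128.1 and 56.7 in Cnot4-null. Both mutant values were higher, but the difference of 1.25 was not called (limma, standard error 0.63, adjusted p = 0.128). The spermatid sum was likewise higher in Cnot4-null PD replicate 1 than in replicate 2. So were the PD marker sum (6194 and 2419) and the LZ marker sum (1023 and 640.9). In WT the spermatid sums were lower at PD than at LZ, while Hist1h2bp was higher at PD. The part of such cells was not tested. Hist3h2a, at 20.9 and 21.1 against 13.9 and 2.86 FPKM, was lower in both mutant libraries without a call (limma, -1.54, adjusted p = 0.0538). Of the testis genes, Hist1h1t was at 4.88 and 4.31 FPKM in WT PD, against 2.85 and 3.47 in Cnot4-null PD (limma, -0.43, adjusted p = 0.307), and the values of Hist1h2aa and Hist1h2ba overlapped between the genotypes (limma, 0.56 and 0.09, adjusted p = 0.184 and 0.908). None of the 3 testis genes was called at PD, and 0 had an unadjusted p under 0.05 (limma).

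The interaction test asked whether the stage change differed between the genotypes. It called 6 of the 46 tested members, 13%, while it called 30.0% of all tested genes, with 4 members more positive in Cnot4-null beside 26.0% and 2 more negative beside 3.97%. This split turned with the scaling, to 2 and 4 members under quantile normalization and 3 and 7 with rescaling, as did that of all genes, from 4139 and 631 to 1548 and 1966 and to 2177 and 5129. Hist1h2bc, which went from 2.08 and 5.34 to 0 and 0.224 FPKM in WT and from 4.45 and 0.843 to 21.9 and 43.6 in Cnot4-null, differed by 5.33 (limma, standard error 0.85, adjusted p = 0.00542). Hist1h1c differed by 3.24 (limma, standard error 0.54, adjusted p = 0.00613), with its PD values below the LZ values in WT and above them in Cnot4-null. Both were called in every alternative that tested them, and Hist1h3h was not followed through the alternatives. The test also called all 6 Leydig, all 6 spermatid, 7 of 8 spermatogonial, 4 of 5 tested Sertoli and all 4 peritubular markers more positive. Of 7 LZ markers 2 were more positive and 2 more negative, and no macrophage or PD marker was called. The part of such cells was not tested. The comparisons share libraries, so their values are given side by side and not compared further.

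Hist1h2bb and Hist1h3h also differed between the genotypes, by 1.96 and 1.98 (limma, adjusted p = 0.0373 and 0.0358). Hist1h2bb was not called in 10 of 13 alternatives, among them both scalings and the replicate block. Hist1h2ak and Hist1h4b had interactions of -2.0 and -2.39 (limma, adjusted p = 0.0414 and 0.0476) and were not called in 9 of 14 and 8 of 13 alternatives. For Hist1h4d (limma, 1.51, adjusted p = 0.0629), Hist2h2be (-1.48, adjusted p = 0.13), Hist2h3c1 (adjusted p = 0.143) and Hist1h1t (adjusted p = 0.309) a difference between the genotypes was not called. Without single libraries the count of called members was 2 (WT PD replicate 1), 3 (WT PD replicate 2, Cnot4-null LZ replicate 2 or Cnot4-null PD replicate 2) or 13 (Cnot4-null PD replicate 1).

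Grouped by gene model, the 42 members whose models end no more than 100 bases past the stem-loop had lower sums at PD than at LZ. They summed to 239.9 and 302.4 FPKM in WT LZ, 42.2 and 35.7 in WT PD, 322.6 and 296.8 in Cnot4-null LZ and 55.7 and 62.5 in Cnot4-null PD, so that all LZ libraries lay above all PD libraries, as they did without Hist1h4d (at least 145.7 at LZ and at most 55.7 at PD). The 21 members whose models run past the stem-loop summed to 30.3 and 44.7 in WT LZ, 69.8 and 68.5 in WT PD, 42.3 and 26.7 in Cnot4-null LZ and 182.7 and 134.9 in Cnot4-null PD. Here the PD libraries were the higher ones in both genotypes, but in WT this rested on Hist1h2bp. Without it the sums were 25.1 and 37.9 in WT LZ and 33.7 and 34.0 in WT PD, which overlap, and 30.8 and 24.5 in Cnot4-null LZ and 54.6 and 78.2 in Cnot4-null PD, which do not.

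In WT, 2 of the 28 tested members of the first class rose, Hist1h4b and Hist1h4h, and 15 fell, with a median of -0.43 over all 42. Of the 14 tested that run past it 4 rose (Hist1h1t, Hist1h2bp, Hist2h3c1 and Hist3h2a) and 4 fell, with a median of -0.24 over all 21, while 21.6% of all tested genes rose and 36.2% fell. In Cnot4-null 0 of 28 rose and 9 fell in the first class (limma, 9 with an unadjusted p under 0.05), and 4 of 14 rose and 3 fell in the second, beside 27.8% and 18.2% of all tested genes (3 and 0 without Cnot4-null LZ replicate 2). At PD in Cnot4-null against WT, 4 rose and 2 fell of the first class and 2 rose, Hist1h1c and Hist1h2bc, and 1 fell of the second, beside 41.6% and 11.5%. The splits at PD turned under both scalings, to 1 higher and 2 lower in the first class, and in the second to 2 and 4 under quantile normalization and 2 and 3 with rescaling. As deposited, 2 and 3 of the first class were called at PD without WT PD replicate 1 and 2, and 5 of the second without either Cnot4-null LZ library. In WT the called members of the first class numbered 17, and 10 and 9 without WT PD replicate 1 and 2, and those of the second 8, and 3 and 5. Hist2h2be, where no stem-loop was found, rose in WT and in Cnot4-null. These classes are those of the GENCODE annotation, which differs for some members, Hist1h4a and Hist4h4 among them, from the models behind the FPKM. A difference between the classes was not tested.

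**Figure D5:**
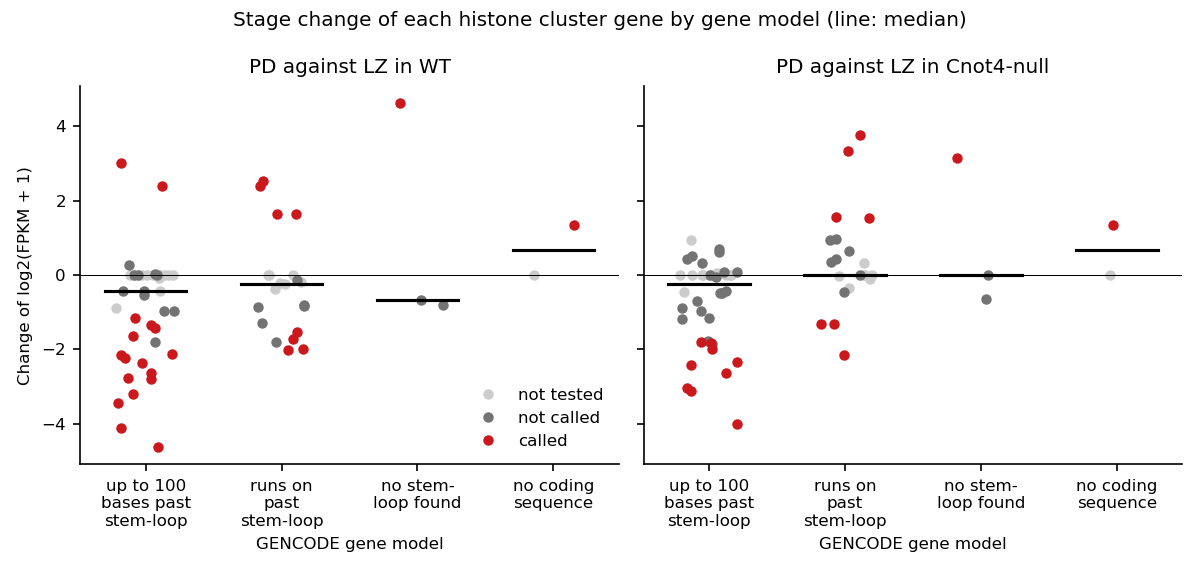
Difference of log2(FPKM + 1) between PD and LZ for each of the 68 members by gene model, in WT and Cnot4-null, with called members in red, others grey and a line at the median. In WT, 15 of 28 tested members whose model ends up to 100 bases past the stem-loop fell and 2 rose. Of all tested genes 36.2% fell and 21.6% rose.

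The genes that act on histone genes and mRNAs were followed from lists. SLBP binds the stem-loop, and Slbp had 293.0 and 283.2 FPKM in WT LZ, then 199.4 and 207.3 in WT PD, 345.8 and 296.8 in Cnot4-null LZ and 146.5 and 126.0 in Cnot4-null PD. It was lower in all PD libraries and lowest in those of the mutant. At PD the genotypes differed by -0.58 (limma, adjusted p = 0.0318), and in WT the stages differed by -0.50 (limma, adjusted p = 0.048), which was 0.38 with rescaling to a common median. Npat, the coactivator of histone gene transcription, went from 24.5 and 22.7 to 5.54 and 5.83 FPKM in WT and from 28.9 and 24.5 to 7.51 and 6.69 in Cnot4-null. All PD values were low, with changes of -1.88 and -1.77 (limma, adjusted p = 0.000199 and 0.000794), and the genotypes did not differ by a call at PD (limma, 0.28, adjusted p = 0.271).

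Of 20 genes of histone mRNA 3′ end processing and decay, 6 rose and 8 fell from LZ to PD in WT, 4 rose and 8 fell in Cnot4-null, and 4 were higher and 4 lower at PD in the mutant. Of all tested genes 21.6% rose and 36.2% fell in WT, 27.8% and 18.2% in Cnot4-null, and 41.6% were higher and 11.5% lower at PD in the mutant, which are the shares to set beside the counts of each list. The rises at PD included Cstf2 (limma, 2.88, adjusted p = 0.000242), Casp8ap2 (1.48, adjusted p = 0.00304) and Lsm11 (1.01, adjusted p = 0.0369, -0.25 after quantile normalization), and the falls Zfp473 (-1.30, adjusted p = 0.0324), Mif4gd (-1.17, adjusted p = 0.0137) and Ncbp1 (-0.86, adjusted p = 0.0329). None of the 8 genes of histone gene transcription rose with stage (limma), 6 fell in WT and 5 in Cnot4-null, and at PD 3 were higher, with E2f1 at 2.96 (limma, adjusted p = 0.000254), and 1, Cdk2, lower (-0.48, adjusted p = 0.044), while the other rises, Pou2f1 and Hinfp, were negative under both scalings. The 22 S phase genes included 16 that fell and 1 that rose in WT and 15 that fell in Cnot4-null, beside 36.2% and 18.2% of all genes that fell, and at PD 12 were higher and 2 lower in the mutant, beside 41.6% and 11.5%. Mcm2, of the replicative helicase, had 58.4 and 46.4 FPKM in WT LZ but 0.526 and 0.815 in WT PD, 50.9 and 49.3 in Cnot4-null LZ and 19.5 and 19.3 in Cnot4-null PD, near 0 in WT PD alone (limma at PD, 3.62, adjusted p = 0.000108). The spermatogonial markers, at sums of 28.3 and 19.4 in WT PD against 552.2 and 594.6 in Cnot4-null PD, moved in the same way as Mcm2, E2f1 and Cenpa, and the part of such cells was not tested.

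Of 21 histone chaperones 4 rose and 10 fell in WT, 2 rose and 5 fell in Cnot4-null, and 8 were higher and 2 lower at PD in the mutant, near the 41.6% and 11.5% of all genes. The counts of these lists at PD are for the values as deposited, where the median of all genes was 0.66 higher in the mutant. Both falls, Nasp (limma, -0.98, adjusted p = 0.0267) and Asf1b (-0.94, adjusted p = 0.00606), are chaperones of H3 and H4. None of these 4 lists and none of the variant histones had a call between the genotypes at LZ (limma), where 1013 of all tested genes had an unadjusted p under 0.05.

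Variant histones outside the clusters were found for 15 of 16 symbols. At PD 7 of 14 tested were higher in Cnot4-null and 1 was lower, with a median of 0.60 over the 15, near the 41.6%, the 11.5% and the median of 0.66 of all tested genes. Hils1, a spermatid linker histone, had 30.1 and 19.0 FPKM in WT PD, against 410.3 and 124.5 in Cnot4-null PD, and H1fnt, another, at 4.34 and 3.03 and at 93.9 and 30.7. Both were higher in both mutant libraries (limma, 3.19 and 3.56, adjusted p = 0.0272 and 0.00177), as were the spermatid markers, whose part was not tested. Cenpa, of the centromere, had 250.6 and 234.5 FPKM in WT LZ but 1.81 and 1.86 in WT PD, 235.7 and 251.2 in Cnot4-null LZ and 82.0 and 69.4 in Cnot4-null PD, low in WT PD alone (limma at PD, 4.75, standard error 0.18, adjusted p = 4.44e-05). H2afz, the fall, had 1859 and 1880 FPKM in WT PD, against 767.0 and 494.4 in Cnot4-null PD, with the mutant lower in both libraries (limma, -1.60, standard error 0.27, adjusted p = 0.00288). In each of the 8 libraries H2afz alone was above the sum of all 68 cluster genes.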

How the data were processed

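The authors trimmed and mapped the reads to mm9 with TopHat2 2.1.1 and computed FPKM with Cufflinks 2.2.1, per the submitters' processing notes, and deposited the FPKM per gene symbol. The 8 libraries were grouped by their labels, 4 groups of 2. The members and all lists were chosen with earlier results of these data known.

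Genes above 1 FPKM in at least 1 library, 15899 of 23235, were fitted as log2(FPKM + 1) with limma 3.58.1 in R 4.3.3 (4 group means, 5 contrasts, eBayes with a trend, 4 residual degrees of freedom, two-sided). Within each contrast the p-values of all genes received a Benjamini-Hochberg adjustment. The procedure was tested on simulated data, from which no result is given or used here. With 2 libraries against 2, the smallest p of an exact permutation test is 0.333. Python 3.11.15 with numpy 2.4.6, pandas 2.3.3, matplotlib 3.10.9 and Biopython 1.88 did the rest.

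Read numbers were recovered where all values of a gene were whole multiples of 1 step within 0.06 of a read, plus 0.0005 per read. The largest step that fits was used, which gives the smallest read numbers. The FPKM files give no counts, so no counting interval is given. Exons, stem-loops and 50-base windows were read from GENCODE vM1 on NCBIM37, the assembly of mm9. The UCSC models behind the FPKM differ from these for some members. Hist4h4 and Hist1h4k have 312 exon bases each in GENCODE, but their steps were 0.0582 and 1.4046 FPKM. Hist1h4a, with 539 exon bases, had the same step as Hist1h4k.

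The genes selected by rule were Hist1h1t, Hist1h2aa and Hist1h2ba, the 3 members of each family with the highest mean, and Cnot4. Also selected were the 5 largest called rises and falls of members without overlap in each contrast of 2 groups. The other lists gave the 3 largest called rises and falls at PD, 10 further genes and the highest gene of each marker list. Of these, H2afb1, Rbbp7, Anp32e, Atrx, Fen1, Cdt1, Pcna, Gins1, H2afx, H3f3a, H3f3b, H1f0 and Hbb-b1 are not described above. Hist1h2bj, Hist1h2bk, Hist1h3h, Hist2h3c2, Spo11, Uchl1, Amh and Fshr were named outside this rule, as were members described for their gene models, windows or positions. The lists were variant histones, 3′ end processing and decay, histone gene transcription, chaperones, S phase genes and 9 marker lists. H3f3c, Meiob and Rhox5 were not found, Slip1 was found as Mif4gd and Adgre1 as Emr1.

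The alternatives were a pseudocount of 0.1, no filter, a mean of at least 5 FPKM, members with at least 50% unique windows, quantile normalization, rescaling to the same median, only the compared libraries, a replicate block and each library left out. A limit to members with at least 10 recovered reads was chosen after seeing the data.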

Additional observations from a re-analysis of the deposited data

Results flagged for a closer look

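In 6 histone cluster genes the effect of the genotype differed between the stages by the interaction test (limma, adjusted p under 0.05). These were 13% of the 46 tested, beside 30.0% of all tested genes. Also called more positive were all 6 Leydig, all 6 spermatid, 7 of 8 spermatogonial, 4 of 5 tested Sertoli and all 4 peritubular markers. Of 7 LZ markers 2 were more positive and 2 more negative, and no macrophage or PD marker was called. The part of such cells was not tested. The difference of the genotype effect at PD and at LZ, on the scale of log2(FPKM + 1), was 5.33 for Hist1h2bc, 3.24 for Hist1h1c, 1.98 for Hist1h3h, 1.96 for Hist1h2bb, -2.0 for Hist1h2ak and -2.39 for Hist1h4b. Over the alternatives Hist1h2bc and Hist1h1c were always called, while Hist1h2bb was called in 3 of 13, Hist1h2ak in 5 of 14 and Hist1h4b in 5 of 13. With no filter 2 members were called, beside 14.5% of all genes. Hist1h3h was not followed one by one. The sizes depend on the pseudocount, and with 0.1 they were 8.16 for Hist1h2bc, 5.96 for Hist1h1c, 3.96 for Hist1h2bb, -1.01 for Hist1h2ak and -4.2 for Hist1h4b. Hist1h2ak and Hist1h3h were at 0 in both WT PD libraries and Hist1h4b in all 4 Cnot4-null libraries.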

How the results depend on the processing

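Counts of called members are given as all, with higher and lower in brackets. For PD against LZ in WT the 27 (8 and 19) became 17 (5 and 12) with no filter (37.2% of all genes). They became 10 (3 and 7) of 11 tested with a mean of at least 5 FPKM (71.9% of all genes under that filter). With at least 50% unique windows they were 17 (6 and 11) of 30. For PD against LZ in Cnot4-null the 18 became 9 (3 and 6) of 11 with a mean of at least 5 FPKM (55.4% of all genes). For Cnot4-null against WT at LZ the 1 became 0 with a pseudocount of 0.1 (limma, 6 members with an unadjusted p under 0.05 as reported). With no filter it also became 0, where 0.133% of all genes were called. For Cnot4-null against WT at PD the 10 became 5 (4 and 1) with no filter (30.7% of all genes). They became 4 (3 and 1) of 11 with a mean of at least 5 FPKM (55.8% of all genes). For the interaction the 6 became 2 with no filter (14.5% of all genes) and 1 of 11 with a mean of at least 5 FPKM (35.7% of all genes). With rescaling they became 10 (3 and 7). The cause was not tested, beyond that a filter or a limit to unique members tests fewer members.

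The median over the 68 members was -1.58 in WT with a pseudocount of 0.1 (-0.40 as reported). In Cnot4-null it was -0.14 under quantile normalization and -0.02 under rescaling, and at PD it was 0.06 with a pseudocount of 0.1, 0.00 under quantile normalization and 0.00 under rescaling. The cause was not tested.

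Leaving out each library gave 15 to 28 called in WT (15 without WT PD replicate 1 or 2), 11 to 19 in Cnot4-null (11 without Cnot4-null LZ replicate 2), 0 to 1 at LZ, 4 to 13 at PD and 2 to 13 for the interaction. The medians ran from -0.42 to 0.00 in WT (0.00 without WT LZ replicate 2), from -0.04 to 0.00 in Cnot4-null and, at PD, from 0.00 to 0.11, while at LZ both ends were 0.00. A group left with 1 library was tested with limma's pooled spread, on the assumption that it varies like the other groups.

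The replicate block gave 29 (8 and 21) in WT, 19 (7 and 12) in Cnot4-null, 1 at LZ, 10 (6 and 4) at PD and 5 (3 and 2) for the interaction. Replicates of 2 groups share only a number, and the deviations of same-numbered libraries correlated at 0.194 for the Cnot4-null stages and at -0.0651 to 0.0826 for other pairs of groups. Members with at least 10 recovered reads, a limit chosen after seeing the data, gave 21 (8 and 13) of 23 in WT, 12 (5 and 7) of 19 in Cnot4-null, 1 of 19 at LZ, 8 (4 and 4) of 17 at PD and 5 (3 and 2) of 25 for the interaction. The share of all genes called under the same limit was not computed, so these counts have nothing to be set beside. A member can also pass this limit through the group where it is high, so no conclusion is drawn from them.

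The called tests of the named members, 46 in all, gave a call in the same direction in 537 of 665 alternative fits, with no call in the others and no reversed direction (limma). Over all alternatives 23 of the 46 kept their call. For the other named genes, 1384 of 1596 fits gave the same call, 206 none and 6 a reversed direction. Those were Lsm11 at PD (-0.25 under quantile normalization), Pou2f1 at PD (-0.32 under quantile normalization, -0.03 under rescaling), Hinfp at PD (-0.40 under quantile normalization, -0.30 under rescaling) and Slbp in WT (0.38 under rescaling). The cause was not tested.

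Depth limits these values. Of the 49 members with recovered reads 24 never reached 10 by the smallest numbers that fit, so a single read moves their level. Of the 68 members 31 have under 50% unique windows. Reads of near copies were not counted by the authors, and what they came from cannot be told. With 2 libraries per group the spread of each gene rests on the model over all genes.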
